A study of Mus musculus with 2 samples.

Results

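Mep1a, Mep1b, Mme, Anpep, Enpep, Dpp4, Dpep1, Ggt1 and Treh, 9 genes of 21938 protein-coding genes in the GENCODE M21 basic annotation, encode enzymes of the brush border, the carpet of microvilli on the urine side of the kidney's proximal tubule. They were chosen by name, and all 9 were found. The name brush border peptidases fits 8 of them: Treh encodes trehalase, which splits a sugar and not a peptide. Chromatin accessibility at these genes was measured by DNase-seq, in which the nuclease DNase I cuts open chromatin and the cut ends are sequenced, in kidney tissue from B6CASTF1/J males, a cross between C57BL/6J and CAST/EiJ, aged 25 days. The series holds 1 group of 2 libraries, replicate 1 and replicate 2, with no treatment and no control group, so values of both libraries are given side by side, in that order, and no test was possible.

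The proximal tubule breaks down peptides that the glomerulus has filtered. Endopeptidases of the brush border cut within a peptide, aminopeptidases and dipeptidyl peptidases trim its start, dipeptidases split the last pairs, and the free amino acids and small peptides are then carried into the cell. Gamma-glutamyltransferase and a dipeptidase take glutathione apart at the same membrane.

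Replicate 1 had 125393 peaks (accessible sites) and 237471 footprints, short stretches within accessible DNA that are cut less than their surroundings. Replicate 2 had 177001 peaks and 493495 footprints. A peak's height is the deposited signal value, whose scaling neither the labels nor the files state, and the read depth is unknown. Low heights rise in even steps, of 0.00855 in replicate 1 and 0.00497 in replicate 2. Markers of the proximal tubule had a promoter peak in both libraries in 7 of 7 genes, and markers of other kidney cells in 10 of 13. The share over all protein-coding genes was 65.3%, so these counts do not show which cells gave the signal. In a tissue of mixed cells, fewer cells of a type and less accessibility per cell cannot be told apart.

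A promoter peak, one that overlaps 500 bp on either side of any basic transcription start site (TSS) of the gene, was present in both libraries for 8 of the 9 genes. Over all protein-coding genes the share was 65.3%. The exception was Mep1b, and 31.1% of all genes likewise had a promoter peak in neither library. The peaks were modest: the members' median height, as the mean of the libraries, was 3.10, against 7.37 over all genes with a promoter peak in both. Their order, from the highest down, was Enpep, Treh, Dpp4, Anpep, Ggt1 and Mme in each library, with Dpep1 and Mep1a last and in opposite order. Enpep and Treh overlapped in range, as did Dpp4 and Anpep, Ggt1 and Mme, and Dpep1 and Mep1a. The lower value of Treh lay above the higher value of Dpp4, that of Anpep just above Ggt1, and that of Mme above Mep1a and Dpep1.

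**Figure D1:**
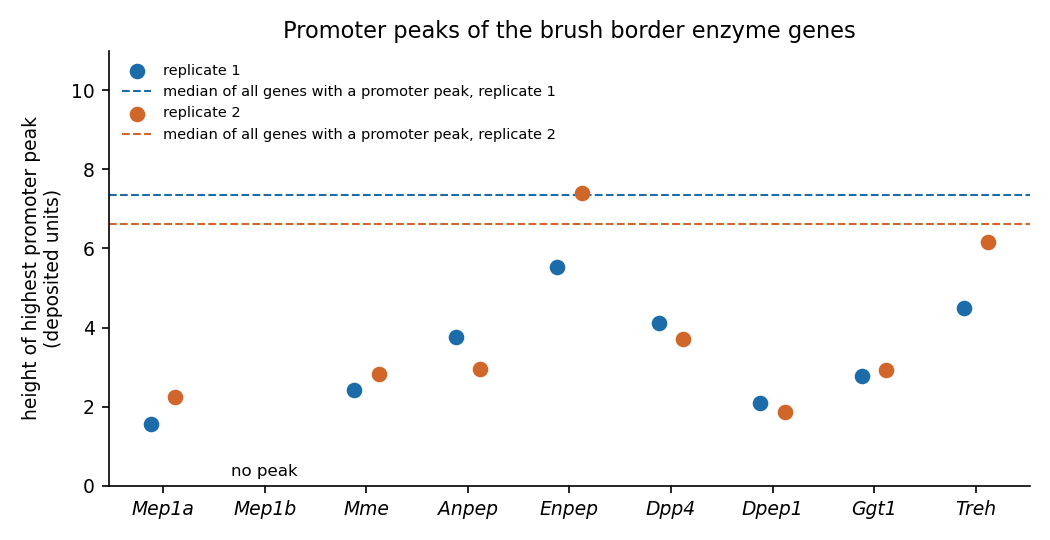
Height of the highest promoter peak of each gene (vertical axis, deposited units) in replicate 1 (blue) and replicate 2 (orange), with the median over all protein-coding genes with a promoter peak as a dashed line for each library (7.36 and 6.63). Each of the 8 genes with a peak lies below both medians, except Enpep at 7.40 in replicate 2, and Mep1b has no peak.

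Most of these promoters are poor in CpG, the dinucleotide that marks the broadly open promoters of many genes. CpG observed over expected was taken at the basic TSS of the gene with the highest value, which need not be the open one. With all protein-coding genes divided into 10 equal classes by CpG observed over expected at the promoter, Treh (0.10) fell in class 1, Mep1b (0.16) in class 2, Ggt1 (0.26) in class 3, and Dpep1, Enpep and Mep1a (0.35, 0.40 and 0.42) in class 4. Of these 6 genes 5 had a promoter peak in both libraries, while 23.5% of all genes in the lower 4 classes had one. By class the share was 11.5% in class 2, 23.5% in class 3 and 52.3% in class 4. In class 1 the share was 6.43%, and Treh stood at the 93.6th and 96.4th percentile of height among the class's genes with a peak. Enpep stood at the 82.4th and 87.1st percentile of class 4, and Ggt1 at the 78.2nd and 78.5th of class 3. Mme, in class 8 with 0.77, stood low, at the 11.8th and 16.6th percentile.

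**Figure D2:**
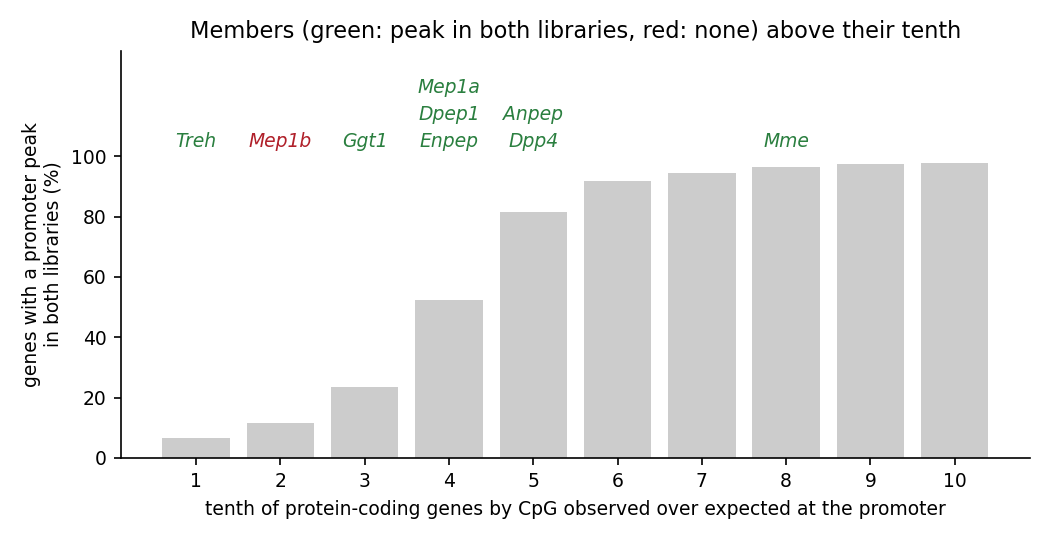
Percentage of protein-coding genes with a promoter peak in both libraries (vertical axis) in each of 10 equal classes by CpG observed over expected at the promoter (horizontal axis, 1 is the lowest), with each member's name above its class. Bars climb from 6.43% in class 1 to 97.7% in class 10, and 6 of the 9 members stand over the lower 4 classes.

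The meprins, metalloendopeptidases built from an alpha and a beta subunit, differed in their promoters. Mep1a (chromosome 17, 43474324 to 43502812 in mm10, minus strand), which encodes the alpha subunit, had a promoter peak of 1.56 in replicate 1 and 2.25 in replicate 2, the lowest or next to lowest of the members. It spans the first coding exon. In replicate 2 the peak overlapped 3 footprints, and in replicate 1 none. Farther peaks followed in intron 3, with heights of 0.991 and 1.04 at 2022 bp from the nearest TSS and of 0.983 and 0.984 at 942 bp. Lower sites lay 4003 bp past the gene's end (0.538 and 0.775) and 1568 bp upstream (0.615 and 0.691).

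Mep1b (chromosome 18, 21061923 to 21100199), which encodes the beta subunit, had few accessible sites, all of them low. No base within 500 bp of its basic TSS was listed with a false discovery rate below 0.05 in either library. Its locus, meaning the gene itself with flanks of 10 kb, held 2 peaks in replicate 1 and 3 in replicate 2, with 1 and 6 footprints. The libraries shared a single site, 12803 bp upstream of the TSS, with heights of 0.436 and 0.691. Per kb the locus stood at the 25.9th percentile of all protein-coding genes for peaks, while that of Mep1a stood at the 64.7th.

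Mme (chromosome 3, 63241537 to 63386030, plus strand), which encodes neprilysin, the endopeptidase that breaks down natriuretic peptides and enkephalins, was accessible at an internal group of TSSs. Its promoter peak reached 2.42 and 2.82. The far 5' end of the gene model, 54024 bp upstream of the first basic TSS, had no peak in either library. A higher site lay in intron 1, 1886 bp from the nearest TSS, with heights of 3.84 and 5.89, so in both libraries it exceeded the promoter. Beyond it the long gene had only low sites: the next highest of those shared by both libraries, in the last exon's UTR and in intron 9, measured 0.376 and 0.869, and 0.385 and 0.432.

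**Figure D3:**
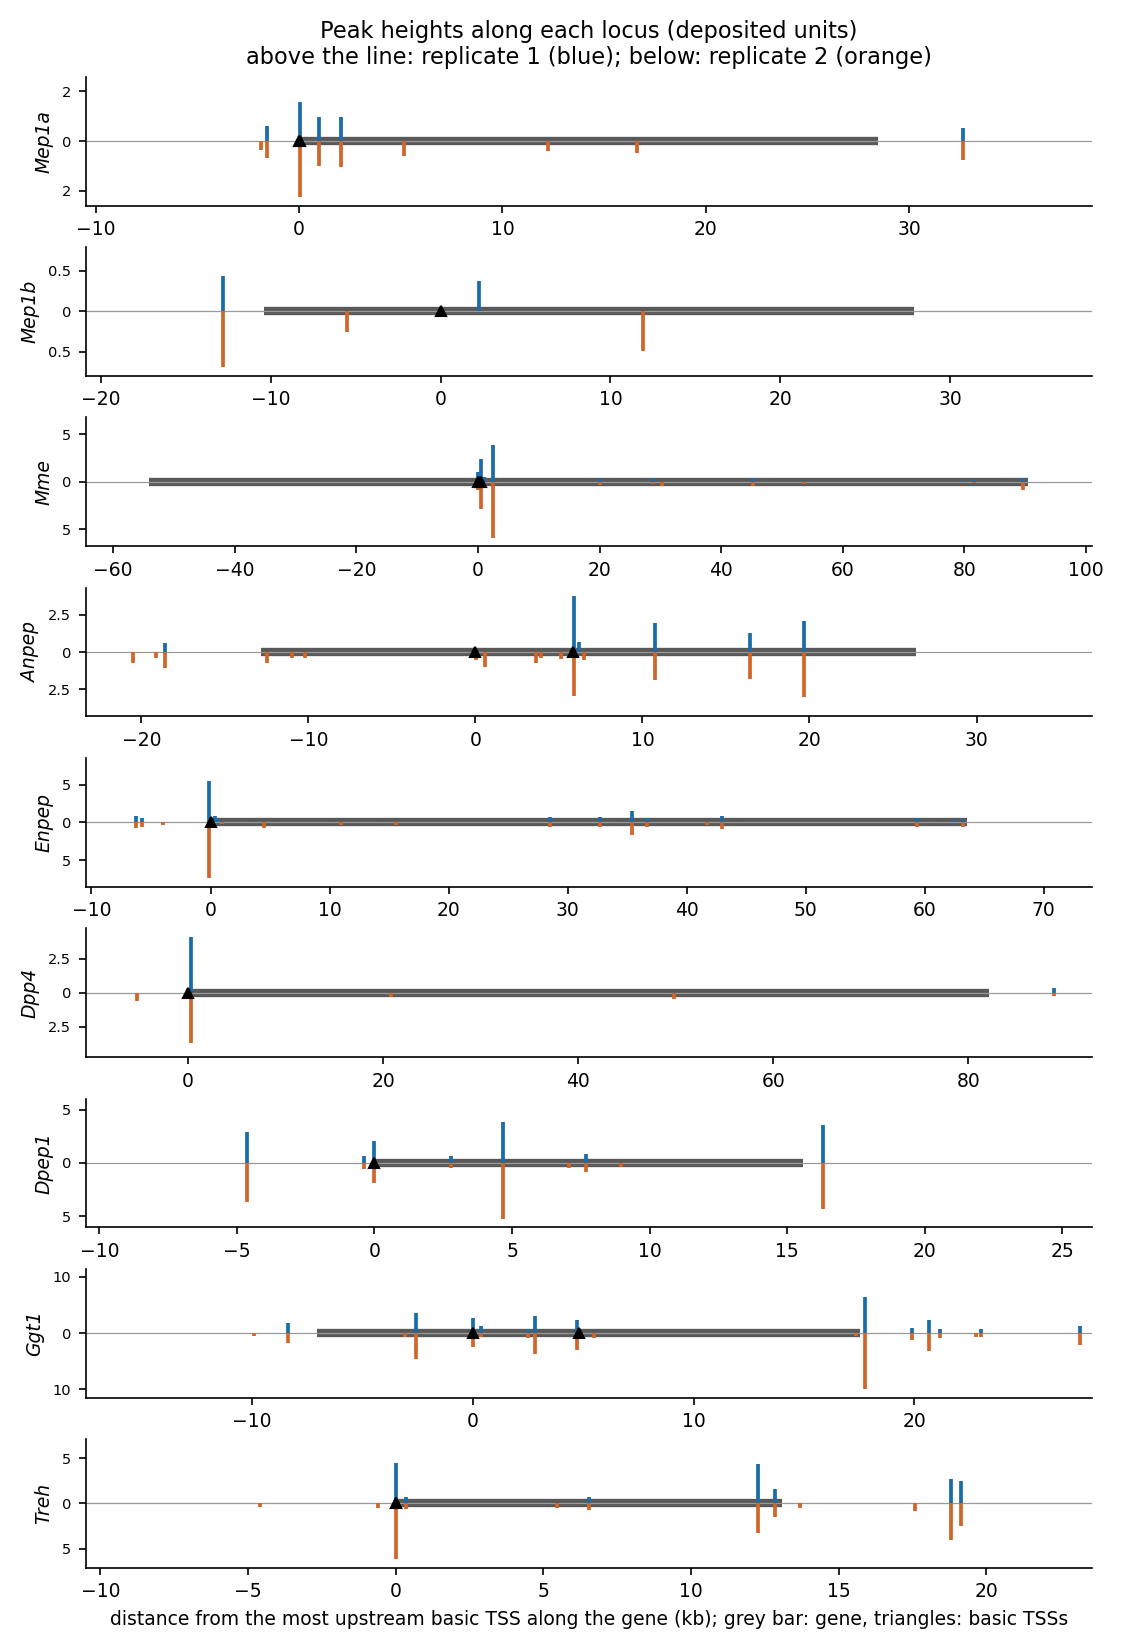
Height of each peak (vertical axis, deposited units, scaled per gene) along each locus against the distance in kb from the most upstream basic TSS, with replicate 1 drawn upward in blue, replicate 2 downward in orange, the gene as a grey bar and basic TSSs as triangles. Dpp4 shows essentially 1 site, the highest sites of Mme, Dpep1 and Ggt1 lie away from their promoters, and Mep1b has only low sites.

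Among the aminopeptidases, Enpep had the highest promoter peak of the set. It encodes aminopeptidase A, which removes acidic residues and converts angiotensin II to angiotensin III. Enpep (chromosome 3, 129269175 to 129332720, minus strand) measured 5.53 and 7.40, the 40.8th and 54.0th percentile of all promoter peaks. In replicate 2 the peak began 21 bp upstream of the TSS. The peak of each library overlapped 5 of that library's footprints. The sequence upstream of the TSS is shown because this promoter is the most accessible one. It covers chr3:129332721-129332940, minus strand, read like all sequences here from GRCm38.p6, the assembly behind mm10, in the direction of the gene from 5' to 3', with bases in footprints of both libraries in capitals.

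Enpep promoter: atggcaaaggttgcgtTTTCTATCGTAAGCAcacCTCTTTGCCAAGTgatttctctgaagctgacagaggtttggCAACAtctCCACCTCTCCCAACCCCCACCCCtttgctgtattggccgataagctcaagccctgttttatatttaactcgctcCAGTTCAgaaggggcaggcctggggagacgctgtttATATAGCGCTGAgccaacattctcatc

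The TATA box letters TATAAA match on the opposite strand 28 bp upstream of the TSS, where a footprint in each library touches them, and 79 bp upstream, where a footprint of replicate 2 does. The central 150 bp of the peak held both matches in replicate 1 and the farther one in replicate 2, and such a match occurred in 2.34% and 2.32% of all promoter peaks. CAAAG, the core letters of HNF4, a nuclear receptor of the proximal tubule, lie 113 and 182 bp upstream, at footprints of both libraries, and such a match occurred in 22% and 23.7% of all promoter peaks. Outside the promoter the gene's shared sites were low, the highest in intron 10 with 1.5 and 1.63, followed by intron 11 (0.795 and 0.854) and a site 6241 bp upstream (0.778 and 0.765). The locus nonetheless held 13 and 16 peaks.

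Anpep (chromosome 7, 79821803 to 79861059, minus strand) encodes aminopeptidase N, which removes neutral residues and is among the most abundant brush border proteins. Its downstream basic TSS, 18707 bp into the gene model, had a peak of 3.75 and 2.95, with 5 and 6 footprints. The upstream basic TSS had peaks in replicate 2 only, of 0.561 over the TSS and of 0.984 in intron 1. The far 5' end likewise had a peak in replicate 2 only, of 0.765. Anpep was thus open in both libraries at one of its basic TSSs. A stretch of 30 bases from the open one, chr7:79842354-79842383 on the minus strand, is shown because it carries the only match among the members' promoter peaks to GTTAAT, the core letters of HNF1, a homeodomain factor of the proximal tubule.

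Anpep promoter: tGAGCTCTGGTTAatatTTGTCCGACccaa

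The match lies 20 bp upstream of the TSS and meets footprints of both libraries. GTTAAT occurred in the central 150 bp of 1.20% and 1.42% of all promoter peaks. In its introns Anpep had a further group of sites, with heights of 2.11 and 2.99 at 13811 bp from the nearest TSS, 1.96 and 1.89 at 4901 bp, and 1.29 and 1.81 at 10581 bp. The last of these is also at the start of the gene model Gm44974. Of the 17 sites of the locus, 11 were called in replicate 2 only, none of them above 0.984. Of all peaks of replicate 2, 62.2% overlapped one of replicate 1.

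Dpp4 (chromosome 2, 62330073 to 62412231, minus strand) encodes dipeptidyl peptidase 4, which removes a pair of residues after proline or alanine and inactivates incretin hormones. Its promoter peak, of 4.12 and 3.70, lay 340 bp downstream of the basic TSS and did not cover it. It held 4 and 6 footprints and overlaps the gene model Gm13561, so signal of the overlapping genes cannot be told apart. Across the rest of the locus the libraries shared 1 site, 6536 bp past the gene's end within Slc4a10, with heights of 0.316 and 0.283. The locus had 2 and 5 peaks and stood at the 22.1st percentile of peaks per kb, the lowest of the members, though its promoter was the third highest.

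**Figure D4:**
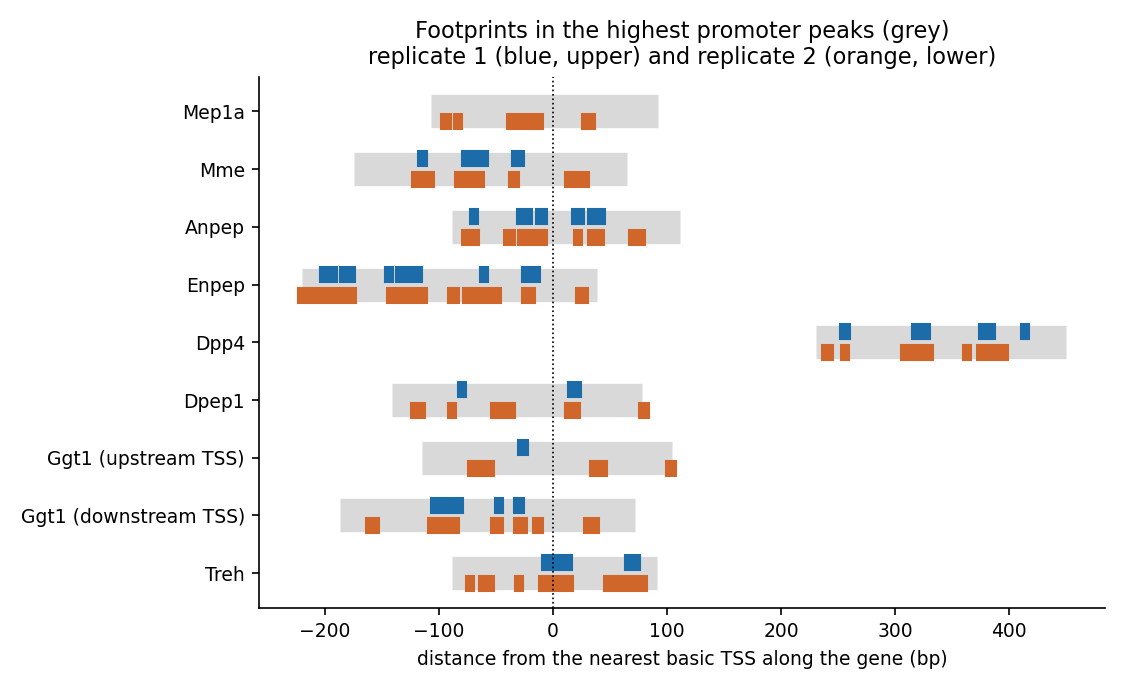
Footprints in the highest promoter peak of each member with one, and at both basic TSSs of Ggt1, against the distance in bp from the nearest basic TSS along the gene (dotted line), with the stretch covered by the peak of either library in grey, replicate 1 in blue and replicate 2 in orange. Enpep's footprints lie mostly upstream of the TSS, the Dpp4 peak lies wholly downstream, and the Mep1a peak has footprints in replicate 2 only.

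Dpep1 (chromosome 8, 123186242 to 123201812, plus strand) encodes the renal dipeptidase, which splits dipeptides, among them the cysteinylglycine left from glutathione. Its promoter peak was low, at 2.09 and 1.86. Sites on every side were higher in both libraries: one 4621 bp upstream (2.90 and 3.69), one in intron 1 (3.90 and 5.27) and one 629 bp past the gene's end (3.61 and 4.37). The gene model Gm20388 overlaps the whole locus. With 7 and 9 peaks, the locus stood at the 83.0th percentile of peaks per kb.

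Ggt1 (chromosome 10, 75561604 to 75586200, plus strand) encodes gamma-glutamyltransferase, which opens the gamma-glutamyl bond of glutathione, and is a gene with several alternative first exons. Its locus had the most peaks per kb of the set, 13 and 18 in all, at the 95.2nd percentile. The flanks reach the genes Lrrc75b and Ggt5, and some of these peaks lie at the promoters of those neighbours or within Ggt5. With 28 and 58 footprints the Ggt1 locus stood at the 91.9th percentile for footprints per kb, and Treh at the 92.3rd. The basic TSSs of Ggt1 had peaks of 2.77 and 2.45 (the upstream one) and of 2.32 and 2.92 (the downstream one). The higher value, which sets the promoter height, thus fell at a different TSS in each library. TSSs that only the comprehensive annotation holds were open as well, with 3.55 and 4.62 at a position 4689 bp into the gene model and 3.01 and 3.62 at 9922 bp. The most upstream TSSs, up to 2551 bp into the model, had no peak in either library.

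The stretches before a pair of these starts are shown because Ggt1 was open at 4 separate starts at similar heights, at the letters given below. The first precedes the basic downstream TSS (chr10:75573261-75573447, plus strand), and the other the start at 9922 bp (chr10:75571381-75571525, plus strand). Capitals mark bases in footprints of both libraries.

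Ggt1 downstream TSS: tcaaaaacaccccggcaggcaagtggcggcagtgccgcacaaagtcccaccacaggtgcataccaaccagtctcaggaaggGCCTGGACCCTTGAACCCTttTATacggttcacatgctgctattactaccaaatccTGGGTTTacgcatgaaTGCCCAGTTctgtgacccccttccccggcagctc

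Ggt1 start at 9922 bp: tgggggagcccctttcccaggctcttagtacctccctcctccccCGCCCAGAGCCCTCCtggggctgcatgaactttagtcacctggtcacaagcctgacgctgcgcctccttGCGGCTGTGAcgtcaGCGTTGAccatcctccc

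In the second stretch the CREB letters TGACGTCA meet footprints of both libraries. Among the promoter peaks of the members, taken at the basic TSSs, none held them, against 3.07% and 3.10% of all promoter peaks. The downstream TSS has TATAAA on the opposite strand 84 bp upstream, meeting footprints of both libraries, and the upstream TSS has the E-box CACGTG, which 6.76% and 6.94% of all promoter peaks held. The GC box GGGCGG was found at the upstream TSS and at the starts at 9922 bp and 4689 bp. A site farther up, before the start at 4689 bp, held the full HNF1 consensus of 13 letters with 3 mismatches, all of it in footprints of both libraries (30 bases at chr10:75566115-75566144, plus strand).

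Ggt1 start at 4689 bp: aaGCCGGGGTTAATGGGTTACCCAGCATGG

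With up to 2 mismatches, the same consensus matched 0 of the members' 8 promoter peaks, against 0.523% and 0.563% of all promoter peaks. With up to 3 mismatches, it matched those of Anpep, Dpp4 and Enpep, so 3 of 8, against 1.47% and 1.73%. At Dpp4 and Enpep the match met footprints of replicate 2 only. This looser search was chosen after the sequences were seen. It also matched 5 of the members' 45 shared sites outside promoters, and 6.67% and 6.79% of all peaks over 1 kb from any TSS. These sets are unlike: the 45 were called in both libraries, and some lie within 1 kb of a TSS.

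Treh (chromosome 9, 44673233 to 44686305, plus strand), the trehalase gene, had the second highest promoter peak, 4.49 in replicate 1 and 6.16 in replicate 2. It spans the first coding exon and held 2 and 5 footprints. A site in an intron near the gene's end measured 4.33 and 3.23, close to the promoter in replicate 1 and well under it in replicate 2. Past the end, 5576 and 5916 bp away, a pair of sites within the neighbouring Phldb1 measured 2.70 and 3.99, and 2.44 and 2.43. The locus stood at the 90.7th percentile of peaks per kb.

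The highest site of all 9 loci was not a promoter. It lay 121 bp past the end of Ggt1, with heights of 6.38 and 9.95. This site, the Dpep1 sites in intron 1 and past the gene, and the Treh intron site are shown because each carries, wholly in footprints of both libraries, a match to the 12-letter consensus of CTCF, a zinc finger protein that bounds chromatin loops, with at most 1 mismatch. Their positions are chr10:75586321-75586500, chr8:123190841-123191000, chr8:123202441-123202620 and chr9:44685401-44685600, on the plus strand.

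Ggt1 downstream site: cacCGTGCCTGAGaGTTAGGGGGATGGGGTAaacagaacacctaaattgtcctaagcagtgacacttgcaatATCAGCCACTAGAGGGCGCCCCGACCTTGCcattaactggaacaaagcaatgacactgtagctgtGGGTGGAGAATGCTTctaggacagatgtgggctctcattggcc

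Dpep1 intron 1 site: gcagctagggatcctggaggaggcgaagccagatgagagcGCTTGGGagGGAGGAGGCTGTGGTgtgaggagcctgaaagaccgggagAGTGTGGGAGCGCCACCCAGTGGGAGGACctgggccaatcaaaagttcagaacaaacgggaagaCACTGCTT

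Dpep1 downstream site: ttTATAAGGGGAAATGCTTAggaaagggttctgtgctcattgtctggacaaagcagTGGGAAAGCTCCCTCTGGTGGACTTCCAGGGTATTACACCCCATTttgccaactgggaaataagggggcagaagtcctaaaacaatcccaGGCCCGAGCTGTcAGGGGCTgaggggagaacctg

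Treh intron site: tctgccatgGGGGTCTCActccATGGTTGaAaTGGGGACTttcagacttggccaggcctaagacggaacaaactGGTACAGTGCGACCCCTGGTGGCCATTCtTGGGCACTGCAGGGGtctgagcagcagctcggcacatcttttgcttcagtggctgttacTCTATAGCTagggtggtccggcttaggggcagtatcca

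On the strand of the match the 12 letters read CCACTAGAGGGC at Ggt1, CCACTGGGTGGC and CCACCAGAGGGA at Dpep1, and CCACCAGGGGTC at Treh, the first with 0 mismatches. One more site, in intron 8 of Enpep, read CCACCAGAGGGC at heights of only 0.641 and 0.551. The 45 shared sites outside promoters were called in both libraries, and some lie within 1 kb of a TSS. At 1 mismatch, 5 of them matched. Of a set chosen otherwise, all peaks of each library over 1 kb from a TSS, 19.1% and 16.2% did. Of the 6 member sites that reached the upper 10% of such peaks by height in both libraries, 4 matched, against 47.9% and 44.2% of all peaks in that range. The other 2 were the Mme intron 1 site and the Ggt1 site before the start at 4689 bp. The consensus was chosen after the sequences were seen, and a match is a resemblance of letters, not evidence of a bound protein.

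The members' promoter peaks were set beside all promoter peaks for each of the letters searched, in the central 150 bp of each peak. The ETS letters CCGGAAG were found in 0 of 8 promoter peaks, against 13.1% and 12.4% of all. GGGCGG was found in 2 of 8 in replicate 1 (Ggt1 and Mme) and 1 of 8 in replicate 2 (Mme), against 58.8% and 55.8%. CAAAG was found in 4 of 8 (Mep1a, Anpep, Enpep and Dpep1), against 22% and 23.7%, and AGGTCA, the letters that many nuclear receptors read, in Anpep and Treh, against 5.04% and 5.47%. The glucocorticoid receptor letters AGAACA were found in Anpep (3.96% and 4.39% of all), CCAAT in Mep1a and Enpep (27.1% and 27.7%), and the CDX letters TTTATNG in Mep1a (2.42% and 2.36%).

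In these central 150 bp, none of the 8 held the longer HNF1 letters GTTAATNAT (0.255% and 0.281% of all) or the longer HNF4 letters CAAAGTCCA (0.289% and 0.342%). The estrogen-related receptor letters TCAAGGTCA (0.0688% and 0.0938%) were absent there as well. The GATA letters AGATAA (1.31% and 1.43%), the AP-1 letters TGANTCA (1.89% and 1.97%) and the short CTCF core CCNNNAGGG (17.7% and 16.8%) were likewise found in 0 of 8. All were searched on both strands in the central 150 bp of the highest promoter peak. Outside that stretch, the Treh promoter peak held CAAAGTCCA 67 bp upstream of the TSS, in a footprint of neither library. The longer HNF1 and HNF4 letters contain their cores, and those of the estrogen-related receptor contain AGGTCA.

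Between the libraries the members' sites recurred much as other sites did. Of 104 sites in the 9 loci, 59 were shared, 5 were called in replicate 1 only and 40 in replicate 2 only. Of the peaks of replicate 1, 92.3% overlapped one of replicate 2 (exact 95% binomial interval 83.0 to 97.5, counting error only), against 87.6% of all its peaks. Of the members' peaks of replicate 2, 59.6% overlapped one of replicate 1 (interval 49.3 to 69.3), against 62.2% of all its peaks. The sites of replicate 2 alone were low, with a median height of 0.464 and a maximum of 0.984. Over the 59 shared sites, which share their libraries, heights correlated with Spearman's rho of 0.934 and, on the log2 scale, Pearson's r of 0.960. Of the members' footprints, 85 of 109 in replicate 1 (78.0%) overlapped one in replicate 2, and 73 of 264 in replicate 2 (27.7%) overlapped one in replicate 1. Over all footprints in peaks of either library the shares were 76.9% and 35.0%. Replicate 2 also had more footprints overall.

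The log2 ratio of replicate 2 to replicate 1 at the promoters ran from -0.35 in Anpep to 0.53 in Mep1a. Over all genes with a promoter peak in both libraries its median was -0.05 with an SD of 0.46, and Mep1a, Treh and Enpep lay above that median by 0.58, 0.50 and 0.47. Over all shared peaks the median was 0.18 (SD 0.50), from which Anpep was farthest, at -0.52. Anpep, Dpp4 and Dpep1, 3 of the 8, were higher in replicate 1, and so were 7 of 7 proximal tubule markers (median log2 ratio -0.53) and 53.9% of all genes with a promoter peak in both. The part of cell mixture in these differences was not tested.

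The rest of the peptide pathway was described from lists of genes. Over all protein-coding genes, 65.3% had a promoter peak in both libraries. Of 18 other membrane peptidases, 10 had a promoter peak in both libraries, 3 in one and 5 in neither, with a median height of 2.52. Lnpep (9.85 and 8.14), an aminopeptidase of vesicles and the cell surface, and Ece1 (8.70 and 8.22), the endothelin-converting enzyme, were the highest, followed by Ggt6 (3.01 and 5.35) and Ace (2.79 and 3.48), the angiotensin-converting enzyme. Among those with no promoter peak were Mmel1, a relative of Mme, and Dpep3, a relative of Dpep1. Ggt5, which lies next to Ggt1, had 2.36 and 3.13 at a site that also falls in the Ggt1 locus.

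Soluble peptidases, which finish peptide breakdown inside cells, had a promoter peak in 10 of 10 genes, with a median height of 13.5. Lap3, a leucine aminopeptidase, measured 27.4 and 28.6, and Dpp3 19.4 and 27.3. Acy3, an aminoacylase of the proximal tubule, reached 14.1 and 13 at a CpG value of 0.19, well above every member. Cndp1, of the same list and also at 0.19, measured only 1.77 and 2.25. Of the glutathione genes 5 of 5 were open, led by Gss, the glutathione synthetase, at 28.8 and 20.7. Their median of 12 stood above the 2.77 and 2.92 of Ggt1. Their CpG values, from 0.40 to 1.02, were also above the 0.26 of Ggt1.

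Peptide carriers were open in 4 of 4 genes but low in all except Slc15a4 (15.2 and 16.8), which also had their highest CpG value, 0.90. Slc15a2, the carrier of the kidney brush border, measured 0.778 and 0.919, and Slc15a1, that of the intestine, 0.504 and 0.561. Genes of the microvillus frame were open in 13 of 14, with a median of 3.69, close to the members' 3.10. Slc9a3r1, a scaffold under the membrane, was the highest (18.1 and 22.9), and Myo1a, a microvillar myosin, had no promoter peak. Hydrolases of the intestinal brush border were open in 0 of 5 genes, among them Sis, sucrase-isomaltase, whose locus held no peak at all in either library, Lct, the lactase, and Alpi. The CpG values of these 5 genes ran from 0.04 to 0.29, in classes 1 to 3. In those classes only 6.43% to 23.5% of all genes had a promoter peak in both libraries.

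**Figure D5:**
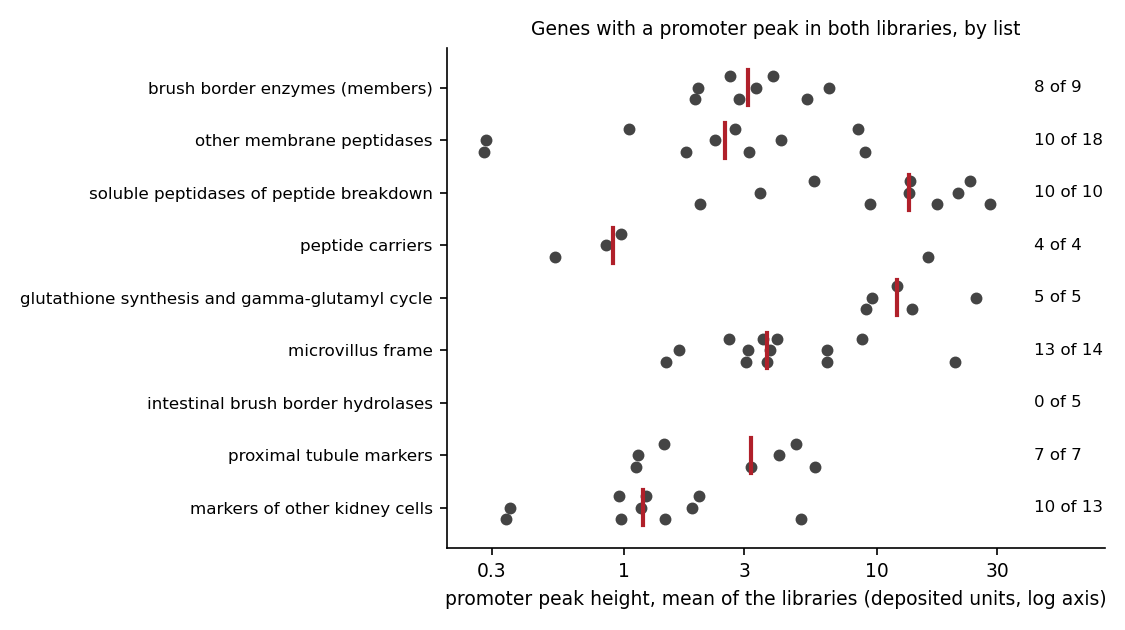
Promoter peak height, as the mean of the libraries (horizontal axis, deposited units, log scale), for each gene with a promoter peak in both libraries, by gene list, with the list's median as a red line and the number of genes with such a peak at the right. The members (median 3.10) lie near the microvillus frame (3.69) and the proximal tubule markers (3.18) and under the soluble peptidases (13.5), and no intestinal hydrolase gene has a point.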

How the data were processed

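The authors deposited, for each of the 2 libraries, 2 peak lists, footprints and false discovery rates by position, on mm10 per the labels. Each library was processed from its own filtered alignments, without pooling, per the file descriptions. The aligner and the callers were not given in the sources used here. In these lists, the deposited signal is the height of each peak. The deposited false discovery rates (q-values) are listed only below 0.05, and the footprint list gives 0.01 in every row, read as a threshold. The labels number the libraries as biological replicates, with different biosamples but 1 donor code. Differences across them may thus partly be technical. The mice carry CAST/EiJ alleles, and how the alignment to the C57BL/6J sequence treated them is not stated. Intervals cover counting error only.

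The longer peak list was used, and the stricter one as an alternative. Promoter peaks overlapped 500 bp on either side of a GENCODE M21 basic TSS, a locus was the gene body with 10 kb on each side, and overlap needed 1 bp. Percentiles and shares are over 21938 protein-coding genes. Of the name Dpep2, shared by a pair of gene models, 1 was used. Motifs were 17 sets of letters, with the full HNF1 (up to 3 mismatches) and CTCF consensus added after the sequences were seen. Printed stretches avoid annotated exons, except 30 bases of Anpep. Members and lists were chosen with earlier results of these data known. The text names, of each other list, the highest promoter peaks (at most 4 genes) and genes with none (at most 3). A few more (Ggt5, Slc15a2, Slc15a1, Acy3, Cndp1) were chosen after their values were seen. Overlap and motif searches were tested on simulated data. Python 3.11.15, pandas 2.3.3 and pysam 0.24.0 were used.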

Additional observations from a re-analysis of the deposited data

How the results depend on the processing

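With the stricter peak list, a window of 2 kb, the comprehensive annotation, the upper 50% of peaks by height, or either library alone, 8 members again had a promoter peak. With the 5' end of the gene model only, 5 had one, without Mep1b, which had no open start, or Anpep, Ggt1 and Mme, whose open starts lie inside the model, and with the TSS itself required, 6 had one. The median promoter height of 3.10 became 3.91 at the 5' end only, 3.63 within 2 kb and 1.99 as the mean of a gene's promoter peaks, and ranged from 2.93 to 3.26 with 1 library left out. The median locus density of 0.174 peaks per kb became 0.103 with the stricter list, 0.110 without peaks within 1 kb of a TSS and 0.0722 with the upper 50% of peaks, and ranged from 0.103 to 0.192 with 1 library left out. The share of recurring peaks of replicate 1 fell to 72.3% when 50% reciprocal overlap was required. The median number of footprints ranged from 10 to 31 between the libraries. HNF1 letters matched 1 promoter peak with the core. With the full consensus they matched 3 at up to 3 mismatches and 0 at up to 2. CTCF matches outside promoters numbered 12 of 45 shared sites with up to 2 mismatches, 5 with 1 and 33 with 3. Of all peaks over 1 kb from a TSS, a set chosen otherwise than the 45 sites, 37.1% and 33.6% matched with up to 2 mismatches. With 1 the shares were 19.1% and 16.2%, and with 3 they were 77.6% and 75.4%. The causes were not tested, except that stricter lists and rules hold fewer peaks. No paired analysis was possible because both libraries form 1 group. Read depth is unknown, which limits every absence of a peak to what these lists call.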

Other observations

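Pdzk1, which encodes a scaffold protein of the microvillus, was chosen after its values were seen: its locus held 10 peaks in replicate 1 and 58 in replicate 2, and 15 and 82 footprints. The promoter peak moved the other way, from 3.78 to 2.43. Ezr, which encodes ezrin, the linker between the microvillus membrane and actin, showed a like gap with 15 and 39 peaks, at promoter heights of 9.56 and 8.02. Of the members, Anpep came nearest, with 6 and 16 peaks. Over all protein-coding genes the median was 4 peaks a locus in replicate 1 and 6 in replicate 2.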
